A study of Mus musculus with 8 samples.

Results

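The genes described here are 39 named genes of the unfolded protein response and the secretory pathway, measured in C3H10T1/2 cells with and without bone morphogenetic protein 7 (BMP7). They were chosen by gene symbol, with 1 probe set per gene: of the probe sets that carry a single gene, the one with the highest mean signal over the 8 arrays. All 39 were found among the 13243 genes on the array, 33 by the symbol in the deposited annotation and 6 by Entrez identifier under an older symbol (Hsp90b1, Sel1l, Chac1, Ppp1r15a, Sec31a and Sar1a). C3H10T1/2 is a mouse embryonic mesenchymal cell line that can be turned towards fat, cartilage and bone cells. Dishes at full confluence received vehicle or BMP7 at 3.3 nM over 3 days, and total RNA was measured on Affymetrix mouse 430A arrays, with 4 arrays per group (Vehicle 1 to 4 and BMP7 1 to 4). Both groups are the same unmodified line, and no other agent or allele is named in the labels. The labels do not say whether the replicates came from separate cultures, and p-values therefore reflect only how far these arrays vary among themselves, which may be technical variation.

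Proteins bound for the cell surface or the matrix enter the endoplasmic reticulum (ER) through the SEC61 translocon, fold with the help of lumenal chaperones and disulphide isomerases, and leave in COPII-coated vesicles. When unfolded protein accumulates, the sensors ATF6, IRE1 (Ern1) and PERK (Eif2ak3) start the unfolded protein response. ATF6 and the spliced form of XBP1 induce chaperone and degradation genes, and PERK slows translation and lets ATF4 accumulate, which induces amino acid synthesis and stress genes. Cells that secrete much collagen, such as fibroblasts and chondrocytes, carry a heavy load on this pathway, and procollagen needs its own chaperone and lysyl hydroxylases.

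The promoters of the genes show which of these arms could be read from sequence, and the windows below are shown because the measurements are later set beside them. RefSeq windows of 300 bases, 250 before and 50 after the annotated start on build GRCm38.p6, were given for 34 of the 39 genes, and Atf6, Hyou1, Sec61a1, Plod2 and Creb3l1 had none. The ER stress element, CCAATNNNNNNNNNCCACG on either strand, is the textbook site of ATF6 with NF-Y. It was found in 39 of 32851 promoters (0.119%), and 7 of these belonged to the genes described here. All sequences are written 5′ to 3′ on the strand of the gene, with the matched letters in capitals. Hspa5 lies at chr2:34771908-34772068 on the plus strand, Hsp90b1 at chr10:86705508-86705681 on the minus strand, and Canx at chr11:50325775-50325843 on the minus strand. Calr lies at chr8:84847050-84847118 on the minus strand, Dnajc3 at chr14:118937802-118937870 on the plus strand, Pdia6 at chr12:17266466-17266534 on the plus strand, and Syvn1 at chr19:6046507-6046575 on the plus strand. In the Hspa5 window the first run of capitals is TGACGTG, the core of the unfolded protein response element, and the second is the ER stress element.
Hspa5: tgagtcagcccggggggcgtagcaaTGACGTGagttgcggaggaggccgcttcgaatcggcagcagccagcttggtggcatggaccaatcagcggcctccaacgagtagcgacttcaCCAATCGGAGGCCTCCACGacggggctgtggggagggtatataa
Hsp90b1: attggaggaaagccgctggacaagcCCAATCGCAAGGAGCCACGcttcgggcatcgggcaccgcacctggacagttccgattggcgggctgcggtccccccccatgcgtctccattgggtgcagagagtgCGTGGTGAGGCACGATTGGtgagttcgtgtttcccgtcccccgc
Canx: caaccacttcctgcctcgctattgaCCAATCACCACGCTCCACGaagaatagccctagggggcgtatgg
Calr: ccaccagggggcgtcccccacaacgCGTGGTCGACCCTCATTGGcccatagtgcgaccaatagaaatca
Dnajc3: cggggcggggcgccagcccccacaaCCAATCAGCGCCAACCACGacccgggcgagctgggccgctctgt
Pdia6: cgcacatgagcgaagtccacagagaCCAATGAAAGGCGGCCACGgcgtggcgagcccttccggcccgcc
Syvn1: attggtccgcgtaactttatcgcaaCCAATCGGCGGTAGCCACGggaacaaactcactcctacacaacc

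The C/EBP-ATF element TGATGNAA, on either strand, is the textbook composite site of ATF4 with a C/EBP factor. It was found in 3.97% of promoters (1304 of 32851), and in 4 of the 34 genes. Herpud1 lies at chr8:94386292-94386349 and Chac1 at chr2:119351024-119351081, both on the plus strand. Trib3 lies at chr2:152344029-152344056 and Asns at chr6:7693210-7693257, both on the minus strand.
Herpud1: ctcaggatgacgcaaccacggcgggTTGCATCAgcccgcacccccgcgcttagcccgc
Trib3: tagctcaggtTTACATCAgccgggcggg
Asns: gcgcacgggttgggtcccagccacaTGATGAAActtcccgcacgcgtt
Chac1: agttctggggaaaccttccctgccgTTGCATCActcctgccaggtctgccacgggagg

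The core TGACGTG, a site bound by XBP1 and ATF6, was found in 2.01% of promoters, and in those of Hspa5, Sec23a and Sec24d. Sec23a lies at chr12:59011994-59012022 on the minus strand and Sec24d at chr3:123267445-123267495 on the plus strand. CCACG, which is the last part of the ER stress element, was found in 32.8% of all promoters and in 26 of the 34 genes. A match is a description of letters within this window, and its use in these cells was not measured.
Sec23a: ctcctccccttTGACGTGgcagaggcggc
Sec24d: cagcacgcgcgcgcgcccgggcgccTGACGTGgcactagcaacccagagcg

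**Figure D1:**
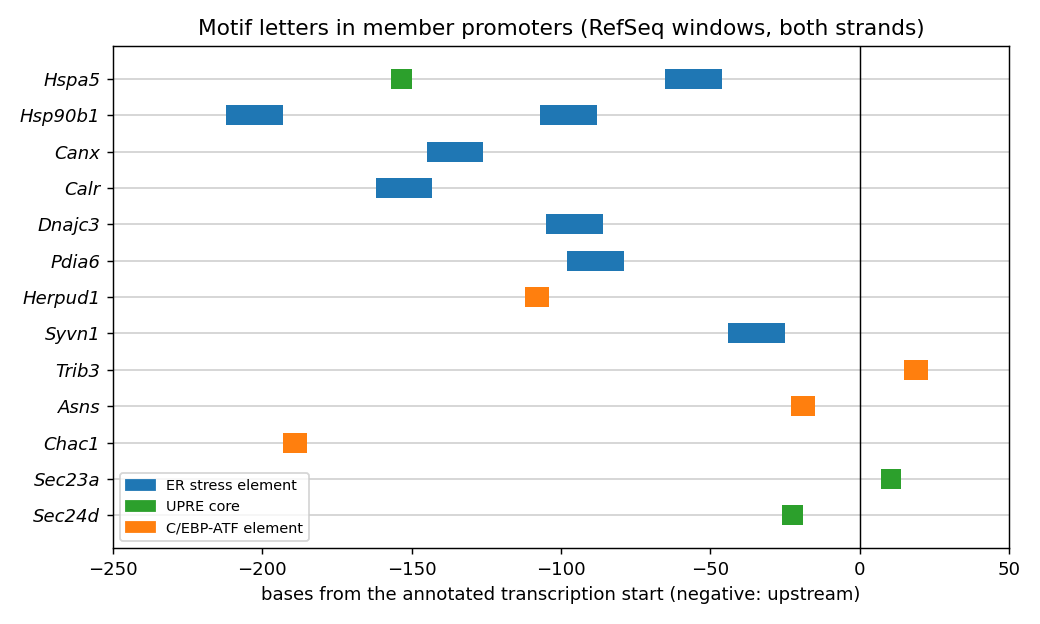
Position of the matched letters in 13 promoters, in bases from the annotated transcription start (x axis, negative upstream), one line per gene, with colours for the 3 motifs. The ER stress element lies upstream of the start in all 7 genes that carry it and occurs in 2 copies in Hsp90b1.

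The labelled cell line was checked against its markers. All 8 mesenchymal or fibroblast-like markers passed the signal filter, and 1 of them, the receptor Pdgfra, fell (log2 change -1.28, limma adjusted p = 0.018). All 8 had negative differences, with a median of -0.45, 5 passed an unadjusted limma p under 0.05 on the lower side (10.3% of all tested genes did), and in 5 every BMP7 array lay below every vehicle array (7.78% of all tested genes). The part of these markers in the results below was not tested. None of 4 epithelial markers passed the filter, and 2 of 4 macrophage, 1 of 4 endothelial and 1 of 3 plasma cell or secretory markers did. Vehicle 3 stood apart in RNA measures. Its ratio of the 3′ to the 5′ control probe set of Actb was 6.55, against 1.17 to 1.40 on the other 7 arrays, and that of Gapdh was 3.36, against 0.725 to 1.35. The mean log2 signal of the hybridisation controls was 12.37, 12.60, 13.25 and 11.92 on Vehicle 1 to 4 and 11.72 to 11.96 on the BMP7 arrays. Vehicle 1 to 3 lay above every BMP7 array in this measure, and only Vehicle 4 lay within the BMP7 range. A fit adjusted for the hybridisation controls therefore cannot separate them from BMP7, and the adjusted differences below rest largely on Vehicle 4. Correlations between arrays of a group, over all tested probe sets, ran from 0.855 to 0.944 for vehicle and from 0.947 to 0.966 for BMP7. Arrays share the authors' scaling.

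No gene of the set rose or fell with BMP7 at this depth of replication. After the signal filter, 38 of the 39 genes were tested, and 0 passed an adjusted p of 0.05 (limma with an intensity trend, Benjamini-Hochberg over 13576 probe sets), where 281 of all 8371 tested genes did (3.36%, with 1.59% rising and 1.77% falling). At an unadjusted limma p under 0.05, 5 of the 38 passed, all with higher signal in BMP7: Sel1l, Asns, Serpinh1, Plod1 and Plod3. Among all tested genes 10.8% passed on the higher side and 10.3% on the lower side at that level. The median log2 difference (BMP7 minus vehicle, on log2(signal + 16)) was 0.12 over the 38 and 0.00 over all tested genes. It was positive for 25 of the 38 (65.8%) and for 50.6% of all genes. Without Vehicle 3 it was positive for 22 of the 38, with a median of 0.07. In these bulk samples, fewer cells of a type and less RNA per cell cannot be told apart.

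A p above the threshold does not show that a gene was the same in both groups, and the intervals give how far it could have moved. On the reported probe sets, the 95% interval of the difference lay within 2-fold in either direction for 29 of the 38 genes (76.3%, against 67.3% of all tested genes) and within 1.5-fold for 10 (26.3%, against 16.6%). It lay within 2-fold for 9 of 9 chaperones, 5 of 5 tested sensors and transcription factors, both translocon genes and 5 of 5 COPII genes. It did so for 1 of 4 genes of ER-associated degradation, 1 of 4 of the PERK-ATF4 arm and 2 of 4 of collagen processing. These limits hold for 1 probe set per gene: of 31 other tested probe sets of the same genes, 12 had an interval within 2-fold. Others reached well past it, such as 0.17 to 1.70 for Hsp90b1, 0.01 to 1.63 for Canx, 0.27 to 2.32 for Dnajc3 and 0.50 to 2.73 for Sec61a1. The authors' deposited table gives an unadjusted p under 0.05 for 2 of the genes, 0.0103 for Plod3 and 0.0482 for Pdia6.

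**Figure D2:**
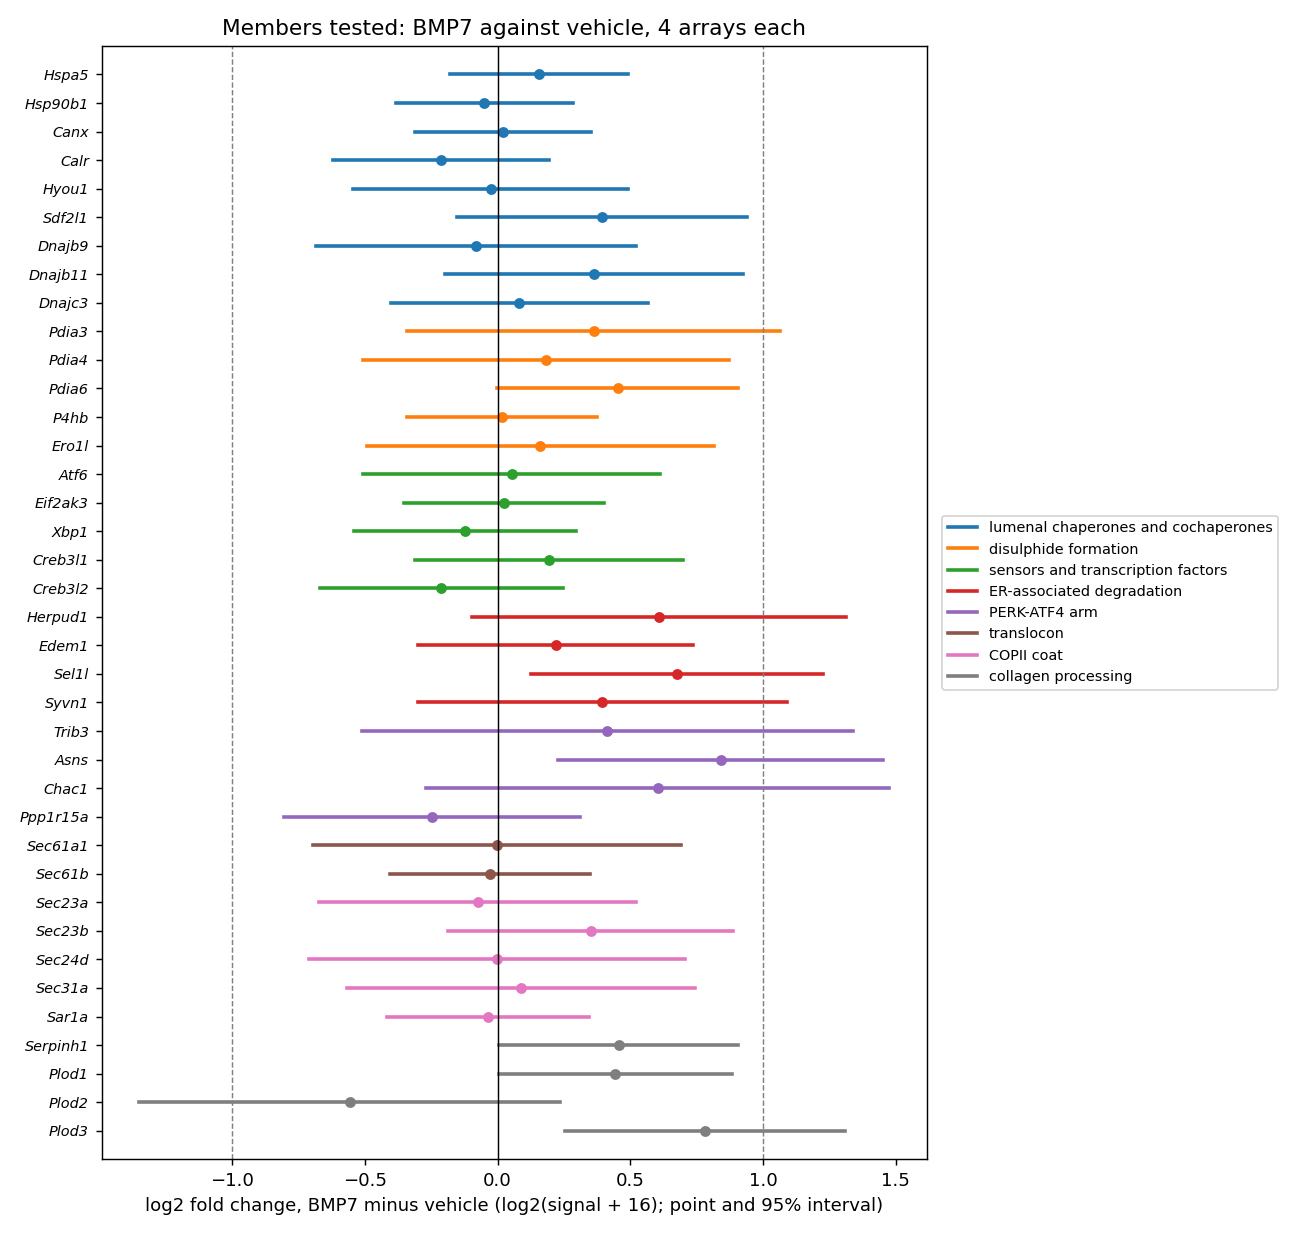
Log2 difference of each of the 38 tested genes (x axis, BMP7 minus vehicle on log2(signal + 16)), with points for the estimate, bars for the 95% interval and colours for the role. Dashed lines mark 2-fold in either direction. The chaperone, sensor, translocon and COPII intervals all stay between the dashed lines, and the interval of Asns runs from 0.23 to 1.45.

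None of the 9 lumenal chaperones and cochaperones passed the test, with log2 differences from -0.21 to 0.39 and a median of 0.02 on the reported probe sets. Hspa5 encodes BiP, the main ER chaperone and the usual gauge of ER stress. Its signal was 14600.1, 17985.8, 16178.1 and 14385.5 on the vehicle arrays and 17228.9, 19166.9, 15454.7 and 18502.0 on the BMP7 arrays. The groups overlapped, and the difference was 0.16 ± 0.15 (SE; 95% interval -0.18 to 0.49; limma adjusted p = 0.568). The upper limit of that interval is 1.41-fold for Hspa5. A second Hspa5 probe set had 7245.6, 9408.6, 6025.5 and 8509.4 in vehicle and 9040.5, 11467.7, 10745.4 and 11490.5 in BMP7, with overlapping groups. Its difference was 0.47 ± 0.18 (SE; 95% interval 0.06 to 0.87, up to 1.83-fold; limma adjusted p = 0.174). The Hspa5 difference was 0.31 with its probe sets averaged and 0.32 after quantile normalization. Calr, a lectin-like chaperone of glycoproteins, had the most negative difference of the 9 (-0.21, 95% interval -0.62 to 0.19), and Vehicle 3 was its highest array at 36812.1.

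Sdf2l1, a partner of BiP, had signals of 962.5, 816.5, 564.7 and 742.9 in vehicle and 1280.3, 1223.6, 851.2 and 753.3 in BMP7. BMP7 1 and 2 were above every vehicle array, and BMP7 3 and 4 lay among them. The difference was 0.39 ± 0.25 (SE, limma adjusted p = 0.374), and 0.26 without Vehicle 3. Dnajb11, a cochaperone of BiP, had 3260.6, 4198.4, 2316.5 and 2219.7 in vehicle and 4108.2, 4773.0, 3701.3 and 2662.4 in BMP7, with overlapping groups (0.36 ± 0.26, SE, limma adjusted p = 0.427). Of the other 5, Canx is the membrane-bound relative of Calr, Hsp90b1 (GRP94) and Hyou1 are chaperones of the HSP90 and HSP70 families, and Dnajb9 and Dnajc3 are cochaperones of BiP. On the reported probe sets their differences ran from -0.08 for Dnajb9 to 0.08 for Dnajc3. Other tested probe sets differed by 0.93 for Hsp90b1, 0.82 and -0.03 for Canx, 0.57 for Hyou1 and 0.43 to 1.30 for Dnajc3. None of them passed the test either, and the size of the difference depends on the probe set.

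Genes of disulphide formation had differences of 0.02 to 0.45, positive for all 5, and none passed the test. Pdia6, an isomerase that acts on BiP clients, had signals of 5295.2, 3406.3, 5263.9 and 6023.6 in vehicle and 5620.2, 6999.0, 6839.4 and 7501.1 in BMP7. Only Vehicle 4 reached into the BMP7 range, and the difference was 0.45 ± 0.21 (SE, limma adjusted p = 0.230). Pdia3 (ERp57), the isomerase that works with calnexin and calreticulin, had 13877.1, 14204.3, 4497.9 and 11126.1 in vehicle and 12157.0, 13407.2, 14097.3 and 11736.8 in BMP7. Vehicle 3 alone was low, and the difference of 0.36 became -0.02 without it. P4hb, an isomerase that is also a subunit of prolyl 4-hydroxylase, differed by 0.02 (95% interval -0.34 to 0.37). Pdia4, another isomerase, and Ero1l, the oxidase that recharges the isomerases, differed by 0.18 and 0.16.

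The sensors and transcription factors showed differences of -0.21 to 0.19 on the reported probe sets of the 5 tested. Eif2ak3 (PERK) differed by 0.03 (95% interval -0.35 to 0.40), Atf6 by 0.05 (-0.51 to 0.61) and Xbp1 by -0.12 (-0.54 to 0.30). Other probe sets of Xbp1 differed by 0.61, 0.26 and -0.33. These are total transcript signals, and the splicing of Xbp1 and the cleavage of ATF6 were not measured. Creb3l1 and Creb3l2 are membrane-bound factors that drive secretory genes in bone and cartilage cells of the mouse. Creb3l1 had 2208.9, 1672.6, 1113.2 and 1828.5 in vehicle and 2025.2, 2074.0, 1556.6 and 1984.1 in BMP7, with overlapping groups (0.19 ± 0.23, SE). Without Vehicle 3 the Creb3l1 difference was 0.0056. Creb3l2 had 3174.5, 3102.2, 4857.6 and 2878.0 in vehicle and 2728.5, 3097.4, 3492.7 and 2591.5 in BMP7, where Vehicle 3 stood far above the rest (-0.21 ± 0.21, SE). Another probe set of Creb3l2 had the opposite sign, with 0.55 (95% interval 0.07 to 1.03, limma adjusted p = 0.174), and 0.43 without Vehicle 3.

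Ern1 (IRE1) was the one gene under the signal filter and has no test. Its signals were 263.8, 99.0, 264.8 and 94.2 in vehicle and 528.4, 645.6, 160.3 and 609.9 in BMP7. BMP7 1, 2 and 4 lay above every vehicle array, and BMP7 3 lay between them. Another probe set of Ern1 had 167.3 to 345.1 in vehicle and 191.0 to 374.5 in BMP7, with overlapping groups.

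The 4 genes of ER-associated degradation had positive differences of 0.22 to 0.68, with a median of 0.50, and none passed the test. Sel1l, the adaptor of the degradation ligase, had signals of 1541.0, 1486.5, 1043.9 and 2543.3 in vehicle and 2763.4, 2522.9, 2448.6 and 2369.4 in BMP7. Vehicle 1 to 3 lay below every BMP7 array, and Vehicle 4 lay inside the BMP7 range. The difference was 0.68 ± 0.25 (SE; 95% interval 0.13 to 1.23; limma adjusted p = 0.150). Without Vehicle 4, Sel1l was past the threshold at 0.91 (limma adjusted p = 0.0295), and without Vehicle 3 the difference was 0.48. Adjusted for the hybridisation controls, which nearly follow the groups, the Sel1l difference was 0.04 (limma adjusted p = 0.963). Adjusted for the Actb ratio, the Sel1l difference was 0.44.

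Herpud1, a membrane protein that assembles the ligase complex, had 3086.8, 1409.7, 1143.9 and 2852.5 in vehicle and 3024.2, 3646.9, 2281.2 and 3080.3 in BMP7. Vehicle 2 and 3 were low and Vehicle 1 and 4 lay within the BMP7 range (0.61 ± 0.32, SE, limma adjusted p = 0.294). The Herpud1 difference was 0.36 without Vehicle 3, 0.19 with array weights and -0.18 adjusted for the hybridisation controls. Its other probe set differed by 0.22, and by -0.01 without Vehicle 3. Syvn1 (HRD1), the ligase itself, differed by 0.40 (95% interval -0.30 to 1.09), and by 0.10 without Vehicle 2. Edem1, a lectin-like protein that picks glycoproteins for degradation, differed by 0.22 (95% interval -0.30 to 0.74).

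In the PERK-ATF4 arm the differences of Asns, Chac1 and Trib3 were 0.84, 0.60 and 0.41, and that of Ppp1r15a was -0.25. Asns, asparagine synthetase, had signals of 5071.1, 5029.3, 3668.7 and 10220.9 in vehicle and 9077.5, 9833.7, 9058.2 and 12210.9 in BMP7. Vehicle 1 to 3 lay below every BMP7 array, and Vehicle 4 lay above 3 of the 4. The means were 5998 ± 2890.0 (SD, n = 4) and 10045 ± 1488 (SD, n = 4), and the difference was 0.84 ± 0.28 (SE; 95% interval 0.23 to 1.45; limma adjusted p = 0.119). Without Vehicle 4, Asns was past the threshold at 1.13 (limma adjusted p = 0.0130). Over the fits that left out 1 array, its limma adjusted p reached up to 0.284. Adjusted for the hybridisation controls the difference was 0.17. A second probe set of Asns differed by 0.56 (limma adjusted p = 0.204), and by 0.53 without Vehicle 3.

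Chac1, an enzyme that breaks down glutathione, had 1069.8, 1135.0, 571.4 and 2596.3 in vehicle and 1750.8, 2443.6, 1156.7 and 1988.7 in BMP7. Again Vehicle 1 to 3 lay below every BMP7 array, and Vehicle 4 was the highest of all 8 (0.60 ± 0.40, SE, limma adjusted p = 0.394). Trib3, a pseudokinase that dampens ATF4 signalling, had 1013.1, 777.6, 536.0 and 2491.3 in vehicle and 1607.6, 1542.2, 800.1 and 1704.1 in BMP7. Vehicle 4 was again the highest array, and BMP7 3 lay among the vehicle arrays (0.41 ± 0.42, SE, limma adjusted p = 0.588). Without Vehicle 3 the differences of Chac1 and Trib3 were 0.27 and 0.11, and without Vehicle 4 they were 0.99 and 0.84. A second probe set of Trib3 differed by 0.02, and by -0.13 without Vehicle 3. Ppp1r15a (GADD34), the phosphatase subunit that restores translation, had 890.2 to 1005.9 in vehicle and 569.4 to 1135.1 in BMP7, and Vehicle 4 was its lowest vehicle array.

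The high Vehicle 4 signals extended to some further ATF4 targets outside the 39. Vehicle 4 was the highest vehicle array for 11 of 19 tested ATF4 targets and stress factors (57.9%), for 8 of the 38 (21.1%) and for 23.1% of all tested genes. Psat1, an enzyme of serine synthesis, had 6603.3, 5978.1, 3593.5 and 11772.2 in vehicle, and Slc7a5, an amino acid transporter, had 2392.3, 1806.9, 2191.2 and 4870.5. For some of the 11 the lead of Vehicle 4 was small, as for Mthfd2 (2117.1, against 2106.0 on Vehicle 2) and Ddit4 (6353.4, against 6195.8 on Vehicle 3). Atf4 itself was highest on Vehicle 2 (9572.5, against 9397.0 on Vehicle 4). The Actb ratio of Vehicle 4 was 1.17, close to that of the BMP7 arrays, and its hybridisation control signal of 11.92 lay within their range. The part of these array measures in the pattern was not tested.

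**Figure D3:**
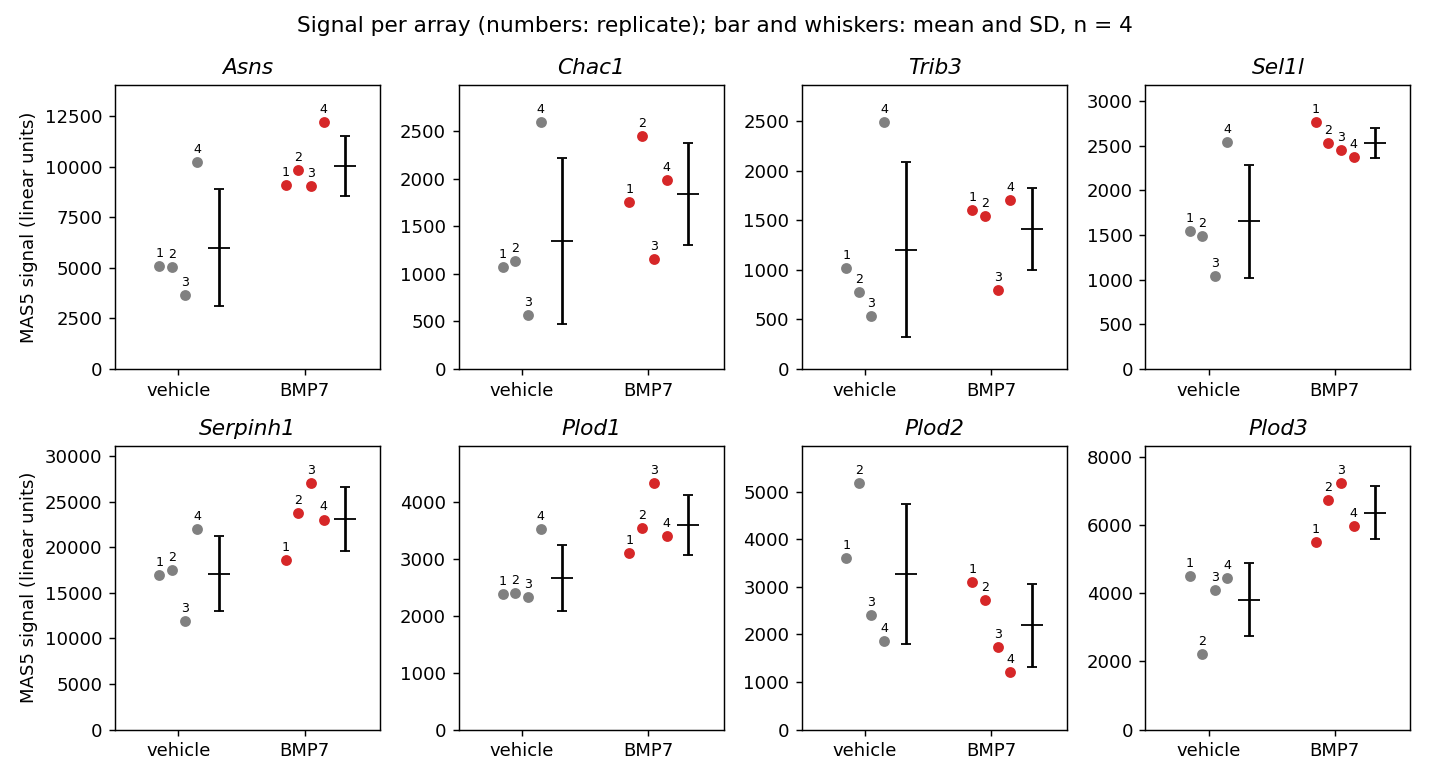
MAS5 signal (y axes, linear units, each starting at 0) of 8 genes on each of the 4 vehicle and 4 BMP7 arrays, with the replicate number above each point and the mean and SD (n = 4) beside them. Vehicle 4 is above the other vehicle arrays for Asns, Chac1, Trib3, Sel1l, Serpinh1 and Plod1. The groups are separate only for Plod3 among these 8.

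Neither translocon gene passed the test, with differences of -0.00096 for Sec61a1 and -0.03 for Sec61b on the reported probe sets. Sec61a1, the channel subunit, had signals of 7319.4, 3920.2, 13989.2 and 7071.9 in vehicle and 8249.3, 6273.6, 7736.2 and 7077.2 in BMP7, so that Vehicle 2 was the lowest and Vehicle 3 the highest of all 8 arrays. Sec61b, a small subunit, had 11347.1, 13573.9, 17838.3 and 14258.7 in vehicle and 14425.1, 12381.2, 14222.2 and 14256.2 in BMP7, with overlapping groups. Its 95% interval was -0.41 to 0.35.

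Other probe sets of Sec61a1 gave another picture. One had 461.5, 294.1, 426.8 and 1682.0 in vehicle and 1531.0, 1401.0, 1520.2 and 1640.7 in BMP7, a difference of 1.41 ± 0.43 (SE, limma adjusted p = 0.0976). A second had 2383.1, 735.5, 623.5 and 4201.5 in vehicle and 4016.3, 5120.6, 4579.6 and 4465.2 in BMP7, a difference of 1.61 ± 0.51 (SE, limma adjusted p = 0.106). In both, Vehicle 1 to 3 lay below every BMP7 array, and Vehicle 4 lay above or among them. The remaining 3 differed by 0.50, 0.63 and -0.33, so the direction for Sec61a1 depends on the probe set.

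The COPII coat genes, which form the vesicles that leave the ER, had differences of -0.08 to 0.35 over 5 genes. Sec23b, an inner coat subunit, had 3447.5, 4079.7, 1823.1 and 2854.0 in vehicle and 4095.9, 3979.9, 3702.9 and 3223.6 in BMP7, with overlapping groups (0.35 ± 0.24, SE, limma adjusted p = 0.422). Without Vehicle 3 the Sec23b difference was 0.13. Sec31a, of the outer coat, had 11135.8, 4962.8, 3536.0 and 6800.7 in vehicle and 7292.9, 5978.3, 6281.4 and 6193.5 in BMP7. The vehicle arrays of Sec31a lay on both sides of the BMP7 arrays, which were close together. Sec23a, the paralogue of Sec23b, Sec24d, a cargo-binding subunit, and Sar1a, the GTPase that starts the coat, differed by -0.08, -0.0022 and -0.04.

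**Figure D4:**
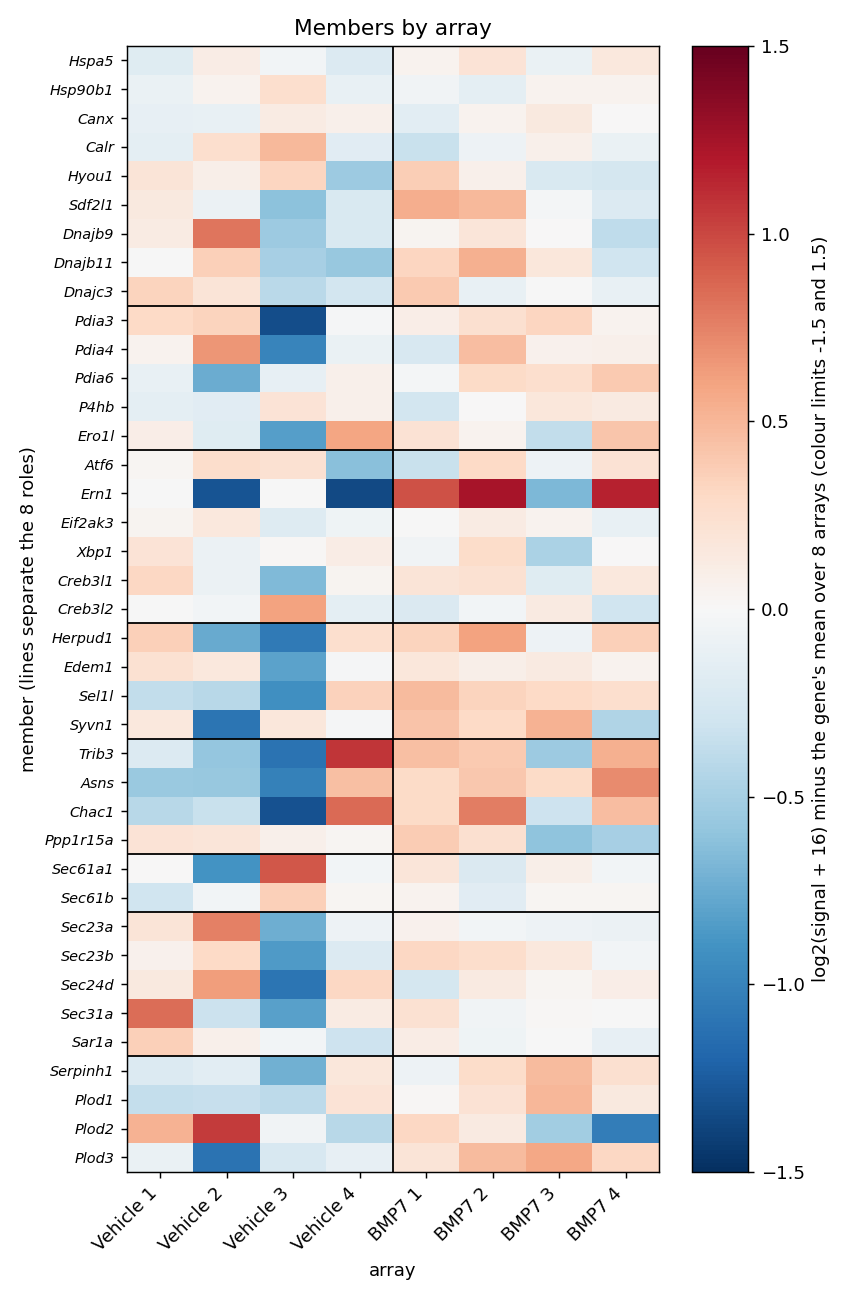
Log2(signal + 16) of the 39 genes (rows, in order of role) on the 8 arrays (columns), each minus the gene's mean over the 8 arrays, with colour limits at -1.5 and 1.5. Vehicle 3 is the lowest vehicle array for 20 of the 38 tested genes, and Vehicle 4 is high for Asns, Chac1 and Trib3.

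Collagen processing held 3 of the 5 genes that passed the unadjusted p. Plod3, a lysyl hydroxylase that also adds sugar to collagen, had signals of 4510.1, 2224.8, 4077.5 and 4436.8 in vehicle and 5497.1, 6724.5, 7233.0 and 5965.3 in BMP7. Every BMP7 array lay above every vehicle array, which held for 7.61% of all tested genes. Among the 38 reported probe sets it held for that of Plod3 alone. Some other tested probe sets of Hsp90b1, Canx and Dnajc3 were also separate in this direction. The means were 3812 ± 1075 (SD, n = 4) and 6355 ± 774 (SD, n = 4), and the difference was 0.78 ± 0.24 (SE; 95% interval 0.25 to 1.31; limma adjusted p = 0.0998). An exact two-sided permutation test over the 8 arrays gave p = 0.0286, the smallest that 4 against 4 allows. Every gene with separate groups has this value, so it adds nothing to the separation. With arrays weighted by quality, Plod3 and Asns passed (limma adjusted p = 0.0297 for each). Adjusted for the hybridisation controls the Plod3 difference was 0.67.

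Serpinh1 (HSP47), the chaperone dedicated to procollagen, had 17000.1, 17489.2, 11884.7 and 21965.6 in vehicle and 18611.7, 23736.9, 27082.0 and 23047.1 in BMP7. Vehicle 4 lay within the BMP7 range, and the other vehicle arrays lay below it (0.46 ± 0.20, SE, limma adjusted p = 0.223). A second probe set of Serpinh1 differed by -0.03. Both probe sets carry a suffix counted as ambiguous below, _a_at for the reported one and _x_at for the second. Without Vehicle 3 the reported Serpinh1 difference was 0.29, and adjusted for the hybridisation controls it was 0.05. Plod1, a lysyl hydroxylase of the collagen helix, had 2389.0, 2400.7, 2325.2 and 3521.9 in vehicle and 3099.4, 3543.7, 4338.0 and 3395.0 in BMP7 (0.44 ± 0.20, SE, limma adjusted p = 0.224). Vehicle 4 again lay within the BMP7 range, above the other vehicle arrays, and adjusted for the hybridisation controls the Plod1 difference was 0.19. Plod2, which hydroxylates the collagen telopeptides, had 3603.1, 5184.4, 2411.4 and 1871.3 in vehicle and 3094.4, 2731.8, 1739.4 and 1212.1 in BMP7, with overlapping groups (-0.56 ± 0.36, SE, limma adjusted p = 0.387). Its second probe set also had a negative difference, of -0.47, and without Vehicle 2 the reported difference was -0.30.

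The reported probe sets were set beside the promoter letters shown above. On them, the 7 genes with the ER stress element differed by -0.21 (Calr) to 0.45 (Pdia6), with a median of 0.08 and 5 positive. Other tested probe sets of these genes differed by 0.47 for Hspa5, 0.93 for Hsp90b1 and 0.82 and -0.03 for Canx. For Calr they differed by -0.21 and -0.15, and for Dnajc3 by 0.43 to 1.30. The 4 genes with the C/EBP-ATF element differed on the reported probe sets by 0.41 (Trib3) to 0.84 (Asns), with a median of 0.61 and 4 positive. Their other tested probe sets differed by 0.22 for Herpud1, 0.02 for Trib3 and 0.56 for Asns. The 3 genes with the core TGACGTG differed by -0.08 to 0.16 on the reported probe sets. After adjustment for the hybridisation controls, which nearly follow the groups, Herpud1, Trib3 and Chac1 differed by -0.18, -0.69 and -0.48. None of the genes with a motif passed the test, and the groups of genes were not compared with each other.

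Probe sets other than the reported one were available for 21 of the genes, 37 in all, of which 31 were tested. Of these, 19 had a difference of the same sign as the reported one and 12 of the opposite sign, and 0 passed an adjusted limma p of 0.05. At an unadjusted limma p under 0.05, 12 of the 31 (38.7%) were higher in BMP7, against 15.6% of the 4671 tested probe sets that do not represent their gene. They belong to Hspa5, Hsp90b1, Canx, Hyou1, Dnajc3, Creb3l2, Sel1l, Asns and Sec61a1, and several probe sets of one gene share its transcript. For Hsp90b1 the second probe set had 7890.9, 5989.2, 2416.7 and 9015.3 in vehicle and 11481.5, 11912.7, 9027.1 and 11188.8 in BMP7. That is a difference of 0.93, against -0.05 for the reported one. The median difference over the 31 was 0.50, and 0.33 without Vehicle 3, against 0.13 and 0.06 over the 4671.

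Vehicle 3, the array with the high 3′ to 5′ ratio, was the lowest vehicle array for 20 of the 38 reported probe sets (52.6%), against 35.0% of all tested genes. It was the lowest for 19 of the 31 other probe sets (61.3%), against 46.7% of the 4671. The vehicle arrays were also more spread: the SD of log2 values was greater in vehicle than in BMP7 for 33 of the 38 genes (86.8%), against 76.7% of all tested genes. The median SD over the 38 was 0.42 in vehicle and 0.20 in BMP7. The part of RNA quality in these differences was not tested.

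The wider pathway was described by 6 lists of further genes, with 121 tested of 127 on the array. Across them 2 rose (1.59% of all tested genes did) and 3 fell (1.77%). At an unadjusted limma p under 0.05, 25 of the 121 passed in either direction, a share close to the 21.2% of all tested genes. Both that rose belong to collagen. Pcolce2, which enhances the trimming of procollagen, had 928.9, 3447.4, 1531.7 and 1089.7 in vehicle and 6134.8, 7983.6, 9808.7 and 7614.4 in BMP7, and rose 5.07-fold (limma adjusted p = 0.0073). Col2a1, the main collagen of cartilage, had 4720.9, 8320.6, 4125.9 and 5831.0 in vehicle and 20061.9, 30146.1, 40222.5 and 26042.0 in BMP7, and rose 5.08-fold (limma adjusted p = 0.00173). In both genes every BMP7 array lay above every vehicle array.

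Among the procollagen cargo, 1 of 9 genes rose, 1 fell and 7 did not pass, with a median of -0.27. At an unadjusted limma p under 0.05, 1 was higher (10.8% of all tested genes were) and 3 were lower (10.3%). In 4 of the 9 every BMP7 array lay below every vehicle array, which held for 7.78% of all tested genes. The gene that fell was Col3a1, a fibrillar collagen of soft tissue, with 50517.3, 61963.9, 70376.8 and 44068.3 in vehicle and 28670.1, 29645.8, 33581.0 and 32411.9 in BMP7 (1.80-fold lower, limma adjusted p = 0.0268). Every BMP7 array lay below every vehicle array, and Col3a1 kept its call in 2 of 8 fits that left out 1 array. Among collagen modification genes, 1 of 13 rose and none fell, with a median of 0.08, and 4 were higher and 2 lower at an unadjusted limma p under 0.05.

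Among ATF4 targets and stress factors, none of 19 rose and 2 fell, with a median of 0.14. Nupr1, a stress-induced chromatin protein, had 1952.6, 1633.1, 1792.3 and 2608.0 in vehicle and 1207.6, 971.8, 630.3 and 1126.0 in BMP7, a log2 change of -1.03 (limma adjusted p = 0.0487). Ddit4, an inhibitor of mTORC1, had 6000.1, 3723.1, 6195.8 and 6353.4 in vehicle and 3587.2, 2419.7, 2352.0 and 2897.5 in BMP7, a log2 change of -0.97 (limma adjusted p = 0.0452). In both, every BMP7 array lay below every vehicle array, which held for 7.78% of all tested genes. Nupr1 kept its call in 1 of 8 and Ddit4 in 2 of 8 fits that left out 1 array. Ddit3 (CHOP), the stress factor induced by ATF4, differed by -0.32 and Atf4 by -0.11.

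No gene passed in the other 3 lists. Of 28 further folding and degradation genes the smallest p belonged to Derl1, a channel-like protein of ER-associated degradation (-0.75, limma adjusted p = 0.0677). Of 26 translocation and N-glycosylation genes it belonged to Sec63, a partner of the translocon (0.47, limma adjusted p = 0.155). Of 26 genes of ER to Golgi traffic it belonged to Sec13, of the COPII outer coat (0.71, limma adjusted p = 0.0989). The medians of these lists were -0.02, 0.18 and 0.11, and 6, 4 and 1 of their genes passed an unadjusted limma p under 0.05, where 21.2% of all tested genes did. Of the 6 folding and degradation genes, 4 were lower in BMP7.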

How the data were processed

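Total RNA of 4 vehicle and 4 BMP7 samples was measured on 1 array each. The authors deposited 1 linear intensity (signal) per probe set and array for 22690 probe sets, computed by MAS5 according to the submitters' processing notes. The version of MAS5 and its detection calls were not given in the sources used here. Every array had a mean signal of 1500.4 to 1500.7 once its highest and lowest 2% were set aside. The authors' deposited annotated table also holds group means, a ratio of the means and an unadjusted p-value, per the file headers. Values were taken from the deposited value table, whose columns name their samples. Their group means equal the authors' means within 0.01. The 8 signal columns of the annotated table, which name no sample, were not used.

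Symbols were updated by Entrez identifier through RefSeq (GRCm38.p6): of the probe sets other than 64 controls, 21453 carry 1 gene, 20828 of them matched, 482 several genes and 691 none. Analysis used log2(signal + 16), so fold changes of low signals are understated. Probe sets with a mean at or above the 40th percentile (8.41) were tested, 13576 in all and 8371 genes at 1 probe set per gene. A list gene was taken only where its representing probe set passed. Groups were compared with limma 3.58.1 in R 4.3.3 (lmFit, eBayes with trend, two-sided, no block), with Benjamini-Hochberg adjustment over the tested probe sets and a threshold of 0.05. The number of arrays limits the precision, and the median SE of a log2 difference was 0.25. The fit was tested on simulated data.

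The genes, roles, lists and tests were chosen with earlier results of these data known. Genes given array by array were those past the threshold in the fit or when 1 array was left out, and the 2 with the smallest p in each role. From each other list came up to 2 rises and 2 falls, or otherwise the smallest p. Hspa5, Ern1, Trib3, Ppp1r15a, Plod1, Plod2, Psat1, Slc7a5, Atf4 and Ddit3 were added after their values were seen. Promoters were searched on both strands.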

Additional observations from a re-analysis of the deposited data

Results flagged for a closer look

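In 3 of 78 groups of 4 arrays, 1 array lay far from the other 3 by Dixon's criterion, which chance alone meets in about 1 group in 20. Creb3l2 read 4857.6 on Vehicle 3, with the nearest vehicle array at 3174.5. Sec61b read 12381.2 on BMP7 2, with the nearest BMP7 array at 14222.2. Plod1 read 3521.9 on Vehicle 4, with the nearest vehicle array at 2400.7.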

How the results depend on the processing

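No gene of the set fell under any of the 21 alternatives run, and none rose except 2 with array weights (Asns at 0.77 and Plod3 at 0.69) and 2 without Vehicle 4 (Asns and Sel1l), a range of 0 to 2 when 1 array was left out. The counts at an unadjusted limma p under 0.05 were 5, 7 and 9 in the reported fit, with array weights and without Vehicle 4. With the hybridisation covariate the count was 0. It was 3 with median centring, without the trend, with the Actb ratio as a covariate, and without BMP7 2, BMP7 3 or BMP7 4. Over the 38 genes, 683 of 787 values under an alternative kept direction and side of the threshold, 100 reversed, and 12 genes never reversed. Of the other lists, 2 rose as reported, 9 with array weights, 1 once the ambiguous probe sets (suffix _x_at, _s_at or _a_at) were dropped, and 2 to 4 when 1 array was left out (4 without Vehicle 4). In them 3 fell as reported, 10 with array weights, and 0 with no filter, without the trend or with the hybridisation covariate; leaving out 1 array gave 0 to 4. It gave 0 without Vehicle 1, BMP7 1, BMP7 2, BMP7 3 or BMP7 4, and 1 without Vehicle 2. Pcolce2 and Col2a1 rose in all 8 such fits.

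Of the 100 reversed values, those given here are of the tested genes whose reported probe set is shown array by array, and of Calr, Syvn1 and Ppp1r15a; the rest are not listed. Quantile normalization gave 0.044 for Calr, 0.057 for Sec61a1 and 0.12 for Sec61b. The hybridisation covariate gave 0.17 for Calr, -0.35 for Pdia3, -0.24 for Creb3l1, 0.16 for Creb3l2, -0.18 for Herpud1, -0.69 for Trib3, -0.48 for Chac1, 0.47 for Sec61a1, 0.19 for Sec61b, -0.027 for Sec23b and -0.52 for Sec31a. The 3′ to 5′ ratio of Actb as a covariate gave -0.063 for Pdia3, -0.025 for Creb3l1, 0.33 for Sec61a1, 0.10 for Sec61b and -0.22 for Sec31a. Array weights gave -0.067 for Creb3l1, 0.085 for Sec61a1, 0.13 for Sec61b and -0.38 for Sec31a. Averaging the probe sets of a gene gave 0.17 for Creb3l2 and 0.64 for Sec61a1, dropping the ambiguous ones gave 0.63 for Sec61a1, and median centring gave -0.017 for Sec31a. When 1 array was left out, values ran from -0.020 to 0.53 for Pdia3, -0.30 to 0.31 for Sec61a1, -0.13 to 0.086 for Sec61b and -0.17 to 0.38 for Sec31a. The cause was not tested.

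The labels do not say whether equal replicate numbers pair the samples, and the reported fit has no block. Same-numbered arrays correlated in their deviations from the group mean at 0.383, 0.0365, 0.152 and 0.187. All 4 vehicle and 3 of 4 BMP7 arrays correlated best with the array of their own number in the other group. What this reflects was not tested. With the replicate number as a block, 0 genes of the set rose and 0 fell, with 6 at an unadjusted limma p under 0.05, and 2 rose and 3 fell in the other lists. The annotated table's signal columns were to be tried in place of the value table and were not run, since their names give no group. The medians of other probe sets without Vehicle 3 were added after seeing the data.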
